A study of Mus musculus with 281 samples.

Results

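The genes described here are 44 that encode the machinery by which proteins enter the endoplasmic reticulum (ER), are folded there and are prepared for secretion or storage. They were taken from a named list of 44 symbols, and every one of the 44 was found among the 43280 symbols of the table. They are read across 281 single cells that were sorted from C57BL/6 mouse bone marrow and profiled by SMART-seq2, which amplifies whole transcripts of 1 cell at a time. The labels gave 47 CMP cells, 45 Ly6C-GMP cells, 22 proneu cells, 31 preNeu cells, 31 tpMo cells and, in title runs described below, 95 and 10 Ly6C+GMP cells. All labels share this inbred strain, and the labels name no treatment or altered allele.

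CMP and GMP cells were sorted as Lin-, c-Kit+, Sca-1- and CD34+, with low CD16/32 in CMP and high CD16/32 in GMP cells. Surface Ly6C split the GMP cells into Ly6C-GMP and Ly6C+GMP. The gate given for 21 proneu cells was the Ly6C+GMP gate, and 1 proneu cell had no gate given. PreNeu cells were Gr1+, CD11b+, c-Kit+ and CXCR4+ but CD115- and SiglecF-. In contrast, tpMo cells were CD115+, Ly6C+ and CXCR4+ but c-Kit-. No animal is named for any cell, so each label is 1 sample of cells, no difference has a replicate check and no p-value is given. SD is the spread over cells, and intervals cover counting error only.

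Secreted, membrane and granule proteins are guided to the ER by the signal recognition particle, cross its membrane through the Sec61 translocon, lose their signal peptide to the signal peptidase and receive N-glycans from the oligosaccharyltransferase. Chaperones and disulfide isomerases then fold them, and misfolded chains are sent back to the cytosol for degradation. When unfolded protein builds up, transcription factors that include XBP1, ATF6 and ATF4 raise the expression of many of these genes. This programme is called the unfolded protein response, and CHOP is a further factor of it. In neutrophil development, primary (azurophil) granule proteins such as myeloperoxidase are made by this route at the promyelocyte stage, and secondary granule proteins such as lactoferrin are made later.

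Chaperone genes of the ER are known for the ER stress response element in their promoters, the letters CCAAT and CCACG with 9 bases between them, which ATF6 and the factor NF-Y bind. RefSeq promoter sequences on GRCm38.p6, from 250 bases before to 50 bases after the gene start, were at hand for 35 of the 44 genes. The element stood on either strand in 7 of these 35, against 37 of 27025 genes in the same table (0.137%). The 7 were Calr, Canx, Creld2, Dnajc3, Hsp90b1, Hspa5 and Pdia6. The stretches below show it for 4 of the genes with the largest differences between labels; capitals mark the element, read 5′ to 3′ along the gene's own strand, and in Calr and Creld2 it lies in the reverse direction.
Hspa5, chr2:34772020-34772048, + strand: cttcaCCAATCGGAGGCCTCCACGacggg
Pdia6, chr12:17266471-17266529, + strand: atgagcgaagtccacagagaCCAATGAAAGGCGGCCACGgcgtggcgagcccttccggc
Calr, chr8:84847055-84847113, - strand: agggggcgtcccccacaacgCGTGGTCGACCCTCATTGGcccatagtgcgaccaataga
Creld2, chr15:88819500-88819558, + strand: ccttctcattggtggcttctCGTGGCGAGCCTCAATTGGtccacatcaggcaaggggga

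Counted from the RefSeq gene start, the element began 65 bases before it in Hspa5, 98 in Pdia6, 126 in Creld2 and 162 in Calr. The gene positions given further on are those of GENCODE, whose outermost starts differ: the element began 54 bases before that start in Pdia6, 126 in Creld2 and 159 in Calr, but 55 bases after it in Hspa5, where it overlaps an annotated exon. A second element, ATTGG and CCACG with 1 base between them, was found in Dnajb11 and Herpud1, 2 of 35 promoters against 0.0444% of all genes. The letters TGACGTGG were in 0 of 35, against 0.714% of all genes, and TGATGNAAN, the composite site of CHOP and ATF4, was in Herpud1 alone, against 4.51%. A match is a description of the letters and no evidence of binding, and promoters of the other 9 genes were not used here.

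The summed level of the 44 genes was high in both GMP labels and in proneu cells, intermediate in CMP and tpMo cells and low in preNeu cells. Levels are in TPM, the share of a cell's transcripts corrected for transcript length, so they can be compared between genes. CMP cells had a lowest, median and highest sum of 3354, 8944 and 20695 TPM. Ly6C-GMP cells had 3076, 16476 and 25119 TPM, and Ly6C+GMP cells had 8290, 17850 and 26010 TPM. The sums of CMP cells overlapped widely with those of both GMP labels, whose medians were close to each other.

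Proneu cells had a lowest, median and highest sum of 10179, 18501 and 24320 TPM, and preNeu cells had 1284, 3386 and 7650 TPM. Every one of the 31 preNeu cells lay below the lowest proneu cell. The tpMo cells had 4088, 7731 and 17986 TPM, and 16 of the 31 lay below the lowest Ly6C+GMP cell. CMP cells averaged 10034 ± 3912 TPM (SD), Ly6C-GMP cells 16518 ± 4384 TPM and Ly6C+GMP cells 17905 ± 3122 TPM. Proneu cells averaged 18225 ± 3742 TPM, preNeu cells 3470 ± 1307 TPM and tpMo cells 8972 ± 3585 TPM.

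**Figure D1:**
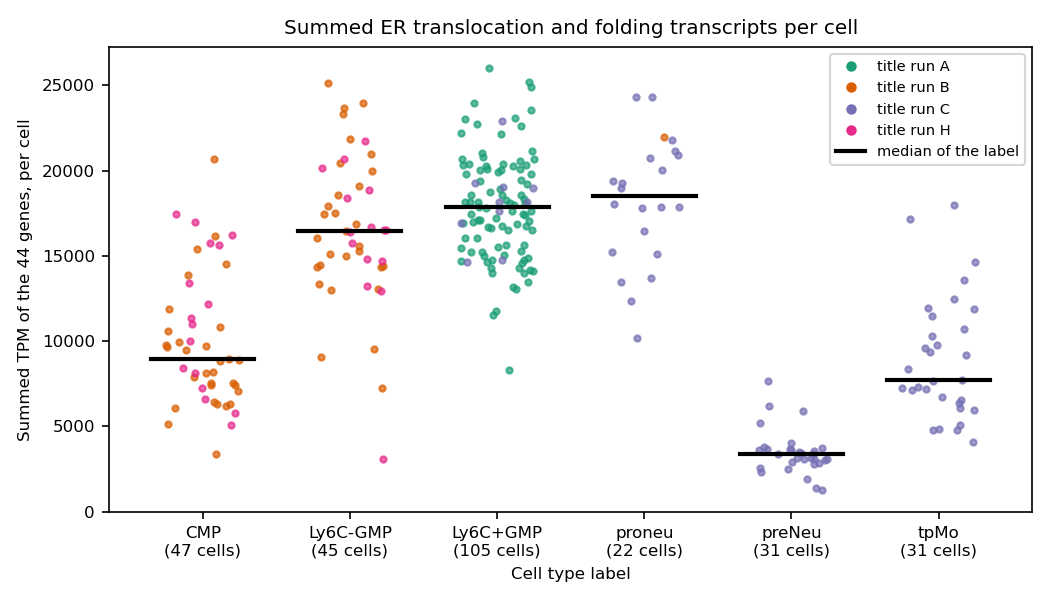
Summed TPM of the 44 genes (vertical axis) in each cell, by label; each point is 1 cell, its colour is the stretch of sample titles it came from, and the black line is the median of the label. The 31 preNeu cells, at 1284 to 7650 TPM, lie below all 22 proneu cells, whose lowest is 10179 TPM.

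The median number of genes detected per cell, at 1 TPM or more, was also lowest in preNeu cells, at 2373, with 3489 in CMP and 3082 in tpMo cells and between 4204 and 4829 in the other labels. In the median preNeu cell, 20 genes held 47.1% of all transcripts, against 14.2% to 22.4% elsewhere. Since TPM sums to a fixed total, abundant granule transcripts lower every other value; with 12 granule genes taken out of the total, the preNeu mean was 4553 TPM and the proneu mean 20441 TPM, a ratio of 4.49-fold against 5.25-fold as deposited. Median-ratio scaling divides each cell by a size factor, whose median was 0.359 in preNeu and 1.043 in proneu cells. It raises preNeu relative to proneu values and would narrow this ratio, and the sums were not computed with it. The 13 preNeu cells with at least 2500 genes had a mean sum of 3501 ± 641 TPM. The part of detection in the differences was not tested.
The sample titles fell into 4 unexplained runs, here A, B, C and H. Run C held all preNeu and tpMo cells, 21 proneu and 10 Ly6C+GMP cells; run A held 95 Ly6C+GMP cells; runs B and H held the CMP and Ly6C-GMP cells, and B also 1 proneu cell. The Ly6C+GMP mean sum was 18051 TPM in run C and 17889 TPM in run A.

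Marker genes were set against the labels. Transcripts of the gate genes followed the surface gates only in part. Kit was detected in 6 of 31 preNeu cells and Cxcr4 in 14 of 31, both with a median of 0. Itgam (CD11b) was detected in 28 of 31 preNeu cells, and Csf1r (CD115) in 22 of 31 tpMo cells. Ly6c2 averaged 2398 TPM in Ly6C-GMP cells and 8521 TPM in Ly6C+GMP cells. The 7 secondary granule markers, which are Cybb and the 6 genes of the secondary sum used further on, summed to at least 151276 TPM in every preNeu cell, and 6 monocyte genes to at least 1261 TPM in every tpMo cell. Plasma cells are rich in the same ER genes. Of 9 plasma and B cell genes, Igj, Mzb1, Igkc and Pou2af1 were at 0 in every cell, and the 9 had median sums of 0 to 1.75 TPM across labels and a highest sum of 1267 TPM, in a CMP cell. By mean, most of this was Cd79b, a subunit of the B cell receptor, which averaged 142 TPM in CMP cells (17 of 47 showed it), 82.4 TPM in Ly6C-GMP cells (12 of 45), 93.3 TPM in Ly6C+GMP cells, 120 TPM in proneu cells (10 of 22), 0.056 TPM in preNeu cells and 39.3 TPM in tpMo cells. Basophil and mast cell genes reached 6938 TPM in a Ly6C-GMP cell (median 78.8), eosinophil genes 6911 TPM in a Ly6C-GMP cell (median 0), and erythroid and megakaryocyte genes 9477 TPM in a CMP cell (median 531). The part of such cells in the differences between labels was not tested.

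By role, the largest share of the sum fell to the chaperones and co-chaperones, with 30.9% in Ly6C+GMP cells and 21.8% in preNeu cells. The disulfide isomerases took 20.9% in Ly6C+GMP and 13.6% in preNeu cells. The stress transcription factors took 8.85% of the sum in preNeu cells and 3.27% to 6.11% in the others, and the signal recognition particle took 9.58% in preNeu and 4.32% in Ly6C+GMP cells.

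The highest mean of log2(TPM + 1) was in Ly6C+GMP cells for 24 genes, in proneu cells for 12 and in Ly6C-GMP cells for 8. The lowest mean was in preNeu cells for 40 genes and in CMP cells for 4, namely Dnajc3, Atf4, Sel1l and Edem1. Of the 44, 37 had a mean of at least 100 TPM in some label. Sec61g, Sec62, Sec63, Hyou1 and Edem1 stayed under 50 TPM in every label. Levels varied widely between cells: 33 genes were detected in at least 90% of Ly6C+GMP cells, 29 in proneu, 26 in Ly6C-GMP, 12 in tpMo, 11 in CMP and 1, Pdia3, in preNeu cells. The counts in this paragraph have no share over all genes beside them, so they are not read as particular to the list. The median number of genes detected was lowest in preNeu cells as well.

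**Figure D2:**
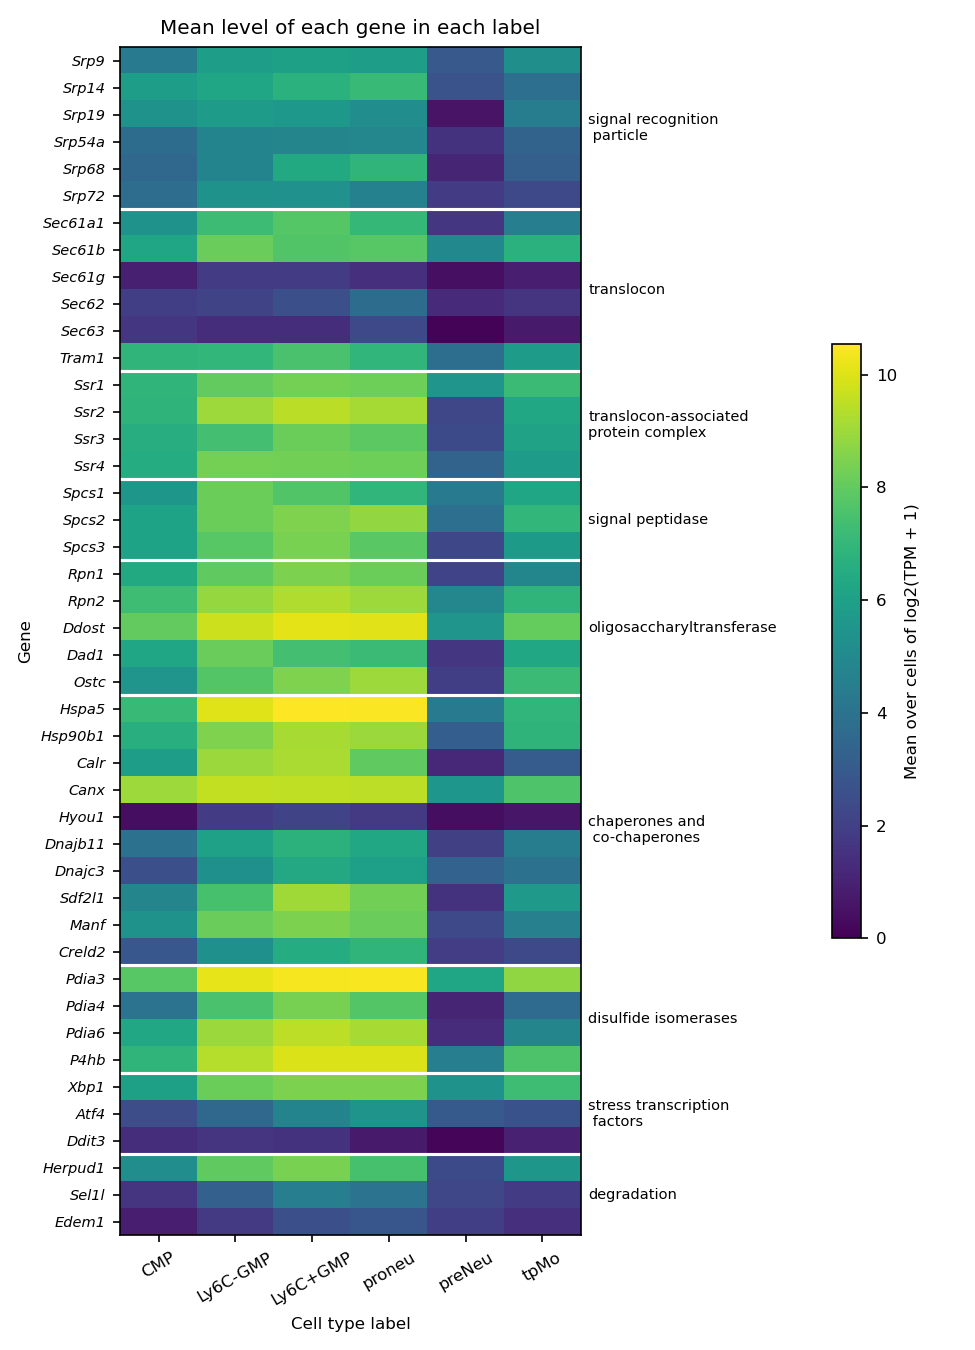
Mean over cells of log2(TPM + 1) for each of the 44 genes (rows, grouped by role) in each label (columns); brighter is higher. The preNeu column is the darkest for 40 of the 44 genes, a count with no share over all genes beside it. Hspa5 and Pdia3 are among the brightest rows in both GMP labels and in proneu cells.

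Differences below are those of the mean of log2(TPM + 1) over cells, and a gene is counted as higher or lower from 1 log2 unit. Genes entered a comparison when 1 of its labels averaged 1 TPM or more, and all 44 entered each of the 6. For such single-cell values a difference reflects both how many cells show a gene and how high it is in them, so the ratio of mean TPM is given beside it. Counts on mean TPM cover the 44 alone. The share over all genes on that scale is not given, so these counts cannot be set against a background.

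Ly6C-GMP cells carried more of nearly every step of the pathway than CMP cells, and most so for chaperones and disulfide isomerases. Of the 44 genes, 34 were higher, 0 were lower and 10 were within 1 log2 unit, with a median difference of 1.77. Over all 12582 genes tested, 15.6% were higher and 1.29% lower (median 0.19). Among genes with a mean of at least 100 TPM, 30 of 35 of the list and 42% of all genes were higher. On mean TPM the contrast was smaller: 37 of 44 means were higher, 9 by at least 2 times, and the median ratio was 1.57.

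Hspa5 (chromosome 2, 34771970 to 34777547), the ER chaperone BiP and by mean the most abundant of the 44 in Ly6C-GMP cells, had a lowest, median and highest level of 3.07, 1283 and 3138 TPM in Ly6C-GMP cells and of 0.95, 361 and 2758 TPM in CMP cells. Its ranges overlapped, and its difference was 2.90 log2 units. Pdia4 (chromosome 6, 47796141 to 47813430), a disulfide isomerase, had 0, 346 and 691 TPM in Ly6C-GMP cells and 0, 4.89 and 923 TPM in CMP cells. It was detected in 41 of 45 Ly6C-GMP cells and 28 of 47 CMP cells, and its difference of 3.50 was the largest of the 44. Calr (chromosome 8, 84841850 to 84846934), the glycoprotein chaperone calreticulin, had 3.30, 726 and 1448 TPM in Ly6C-GMP cells and 0, 144 and 1496 TPM in CMP cells, a difference of 3.04.

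Herpud1, an ER membrane protein of the degradation pathway, had a difference of 2.78 although its means were close, with 417 ± 254 TPM among Ly6C-GMP cells and 335 ± 464 TPM among CMP cells. Manf, an ER-resident factor induced by stress, had a mean of 458 ± 289 TPM over Ly6C-GMP cells and of 241 ± 358 TPM over CMP cells (difference 2.72). Dnajc3, a co-chaperone of BiP, stood at 89.9 ± 82.6 TPM for Ly6C-GMP cells and at 37.6 ± 72.7 TPM for CMP cells (difference 2.71). All 4 disulfide isomerases, all 3 signal peptidase genes and all 5 oligosaccharyltransferase genes were higher, as were 9 of 10 chaperones, with Canx, the membrane-bound lectin chaperone calnexin, as the exception at 0.59.

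The first steps differed by less than folding. Of the 6 signal recognition particle genes, 4 were higher, with a median difference of 1.14, and the 6 translocon genes had a median of 0.58, against 2.55 for the chaperones and 2.52 for the disulfide isomerases. On mean TPM the 6 signal recognition particle genes summed to 859 ± 368 TPM among Ly6C-GMP cells and 855 ± 442 TPM among CMP cells (ratio 1.01), while the chaperone sum had a ratio of 1.98 and the disulfide isomerase sum 1.94. Of the 6 translocon genes, only Sec61a1 (1.77) and Sec61b (1.88), the pore subunit and a small partner of it, were higher. Tram1, Sec62 and Sec63, which assist the pore, differed by 0.12, 0.21 and -0.27. Within the runs that held both labels, the median difference of the 44 was 2.13 in run B (30 Ly6C-GMP and 31 CMP cells) and 1.22 in run H (15 Ly6C-GMP and 16 CMP cells); in run H Srp19 was lower, at -1.99, with a mean of 169 TPM among Ly6C-GMP cells and 224 TPM among CMP cells. Without the 3 Ly6C-GMP cells in which Ngp (a secondary granule gene) reached 1000 TPM, the mean Ly6C-GMP sum was 17051 TPM.

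Ly6C+GMP cells differed little from Ly6C-GMP cells. Of the 44, 6 were higher and 0 were lower (median 0.44), against 9.87% higher, 1.35% lower and a median of 0.12 over all 12399 genes tested, so the count of the list is near the background. No run held both labels, and the title run and the label cannot be told apart here. The 6 were Srp68 (1.65), a subunit of the signal recognition particle, Sdf2l1 (1.53), Creld2 (1.26) and Dnajc3 (1.09), all ER-resident folding factors, Sel1l (1.29), the adaptor of the degradation ligase, and Atf4 (1.22), a stress transcription factor.
Srp68 averaged 175 ± 141 TPM in Ly6C+GMP cells, 91.4% of which showed it, and 107 ± 114 TPM in Ly6C-GMP cells, 73.3% of which did. Sdf2l1 averaged 712 ± 415 TPM over the Ly6C+GMP cells and 539 ± 434 TPM over the Ly6C-GMP cells. The median ratio of mean TPM was 1.13, with 27 means higher and 17 lower, and no mean differed by 2 times or more. Dad1, a small oligosaccharyltransferase subunit, had the lowest difference, -0.71, with 205 ± 110 TPM for Ly6C+GMP cells and 323 ± 169 TPM for Ly6C-GMP cells.

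Most of the 44 genes differed by less than 1 log2 unit between proneu and Ly6C+GMP cells. Over the 44, 1 was higher, 1 was lower and 42 were within 1 log2 unit, with a median of -0.25; over all 12026 genes tested, 2.2% were higher and 15.9% lower (median -0.23). The direction of the small differences depended on the scale: 31 of 44 differences of mean log2(TPM + 1) were negative, whereas on mean TPM 29 of 44 were higher and 15 lower in proneu cells, 2 higher and 0 lower by at least 2 times, with a median ratio of 1.04. Sec62, a helper of post-translational import, had a lowest, median and highest level of 0, 16.6 and 152 TPM in proneu cells and 0, 3.70 and 130 TPM in Ly6C+GMP cells, a difference of 1.16. Calr had 0, 527 and 1374 TPM in proneu cells and 4.83, 683 and 1831 TPM in Ly6C+GMP cells, a difference of -1.23. Both genes overlapped widely between the labels.
Within run C, with 21 proneu and 10 Ly6C+GMP cells, Sec62 differed by 0.81 and Calr by -1.76, with Calr means of 514 TPM among proneu cells and 866 TPM among Ly6C+GMP cells. In that run 8 of the 44 were lower (18.2%) and 0 higher, against 21.2% lower and 5.49% higher over all 11031 genes tested, so the count is near the background. Beside Calr they were Ddit3, Herpud1, Hyou1, Sdf2l1, Sel1l, Srp72 and Dnajb11. The mean TPM of Herpud1, Sel1l, Srp72 and Dnajb11 in run C was nevertheless not lower in proneu than in Ly6C+GMP cells.

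The step with the largest contrast was that between preNeu and proneu cells, where nearly the whole pathway was lower in preNeu cells. Of the 44 genes, 42 were lower, 0 higher and 2 within 1 log2 unit, with a median difference of -4.49. Over all 10991 genes tested, 39.8% were lower and 3.58% higher, with a median of -0.68. Among genes of at least 100 TPM in either label, 37 of 37 of the list and 72.5% of all genes were lower, with medians of -4.99 and -2.53. Of the list, 37 reached that mean in proneu cells but only 13 in preNeu cells. The filter thus admitted most of them only through the label where they are high. Of the 44 means, 43 were lower and 36 by at least 2 times, and the median inverse ratio was 5.38-fold, with no share over all genes on this scale.

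Pdia6 (chromosome 12, 17266545 to 17284770), a disulfide isomerase, had a lowest, median and highest level of 0, 0.99 and 169 TPM in preNeu cells and of 198, 629 and 1368 TPM in proneu cells. The highest preNeu cell lay below the lowest proneu cell. The difference was -7.82 and the mean was 59.5-fold lower, with 11.2 ± 38.7 TPM in preNeu and 665 ± 351 TPM in proneu cells. Pdia6 was detected in 15 of 31 preNeu cells (48.4%, exact Clopper-Pearson 95% interval 30.2% to 66.9%) and in 22 of 22 proneu cells (84.6% to 100%).

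Hspa5 had 0, 6.23 and 481 TPM in preNeu cells and 323, 1765 and 3054 TPM in proneu cells. Only the upper end of the preNeu cells reached the lower end of the proneu cells. Its difference was -6.15. Ostc (chromosome 3, 130695912 to 130709444), an oligosaccharyltransferase subunit, had 0, 0 and 483 TPM in preNeu cells and 124, 501 and 1605 TPM in proneu cells, a difference of -7.01, and was detected in 9 of 31 preNeu and 22 of 22 proneu cells. Ssr2, a translocon-associated subunit, had 0, 2.12 and 986 TPM in preNeu cells and 0, 843 and 1485 TPM in proneu cells, a difference of -6.90.

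Calr averaged 28.6 ± 135 TPM in preNeu and 515 ± 357 TPM in proneu cells, a difference of -6.78. Without the single highest cell of each label its means were 4.64 TPM in preNeu and 474 TPM in proneu cells. Sdf2l1 averaged 47.9 ± 138 TPM in preNeu and 542 ± 448 TPM in proneu cells, a difference of -6.77. Pdia4 averaged 23.9 ± 73.3 TPM in preNeu and 336 ± 187 TPM in proneu cells, a difference of -6.64, and was detected in 6 of 31 preNeu and 21 of 22 proneu cells.

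The contrast differed in size between roles. On the log2 scale the role medians were -6.08 for the disulfide isomerases, -5.51 for the oligosaccharyltransferase, -5.39 for the chaperones, -5.20 for the translocon-associated complex and -4.98 for the signal peptidase. They were -3.88 for the signal recognition particle, -2.66 for the translocon, -2.48 for the stress transcription factors and -1.76 for degradation. Summed levels were 7.86-fold lower in preNeu than in proneu cells for the disulfide isomerases, 6.92-fold for the chaperones, 5.56-fold for the translocon-associated complex, 5.42-fold for the oligosaccharyltransferase, 4.31-fold for the signal peptidase, 3.45-fold for degradation, 3.35-fold for the translocon, 2.83-fold for the signal recognition particle and 2.51-fold for the stress transcription factors. The disulfide isomerases summed to 473 ± 398 TPM in preNeu and 3719 ± 1200 TPM in proneu cells. The signal recognition particle genes summed to 332 ± 452 TPM in preNeu and 942 ± 358 TPM in proneu cells.

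The remaining genes can be read along the route of a secreted protein. Among the targeting genes, Srp14 averaged 88.9 ± 177 TPM in preNeu and 245 ± 174 TPM in proneu cells, and Srp19 was detected in 3 of 31 preNeu and 17 of 22 proneu cells. In the translocon, the pore gene Sec61a1 was detected in 13 of 31 preNeu and 21 of 22 proneu cells (difference -5.38), while Sec61g only just passed 1 log2 unit. Ssr1 stood apart from the other translocon-associated genes: it was detected in 26 of 31 preNeu cells, and its mean was 98.2 ± 83.6 TPM in preNeu and 324 ± 156 TPM in proneu cells.

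Spcs1, a small subunit of the signal peptidase, averaged 149 ± 193 TPM in preNeu and 280 ± 262 TPM in proneu cells (difference -2.59), whereas Spcs2 and Spcs3 differed by -4.98 and -5.55. Ddost, the most abundant oligosaccharyltransferase gene, averaged 224 ± 217 TPM in preNeu and 1153 ± 397 TPM in proneu cells. Hsp90b1, the ER form of HSP90, averaged 96.2 ± 173 TPM in preNeu and 642 ± 418 TPM in proneu cells (difference -5.80). Canx averaged 185 ± 207 TPM in preNeu and 773 ± 355 TPM in proneu cells, and its difference of -3.92 was smaller in size than that of Calr, its soluble relative. P4hb, the classical disulfide isomerase, averaged 156 ± 200 TPM in preNeu and 1139 ± 499 TPM in proneu cells (difference -5.51).

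Xbp1 (chromosome 11, 5520659 to 5525893), the transcription factor spliced by the stress sensor IRE1, ranked higher among the 44 in preNeu than in proneu cells. It had 0, 119 and 850 TPM in preNeu cells and 0, 575 and 1521 TPM in proneu cells. It was detected in 27 of 31 preNeu cells (87.1%, 70.2% to 96.4%), and its mean of 225 ± 264 TPM in preNeu against 605 ± 358 TPM in proneu cells was 2.69-fold lower. By mean TPM it was the second most abundant of the 44 in preNeu cells, after Pdia3 with 282 ± 311 TPM, and the 11th in proneu cells. Gene-level values do not separate spliced from unspliced Xbp1. Atf4 averaged 81.6 ± 131 TPM in preNeu and 149 ± 120 TPM in proneu cells, a difference of -2.48.

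The 2 genes within 1 log2 unit were Ddit3 (-0.63), which encodes CHOP and averaged 0.795 ± 4.43 TPM in preNeu and 16.5 ± 53.4 TPM in proneu cells, and Edem1 (-0.87), a lectin of the degradation pathway. Edem1 averaged 29.1 ± 69.8 TPM in preNeu and 25.2 ± 31.2 TPM in proneu cells, and once the highest cell of each label was left out 18.7 TPM in preNeu and 21.6 TPM in proneu cells. Srp72, a subunit of the signal recognition particle, averaged 117 ± 391 TPM in preNeu and 133 ± 150 TPM in proneu cells, but with the highest cell of each label left out 53.7 TPM in preNeu and 115 TPM in proneu cells.

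**Figure D3:**
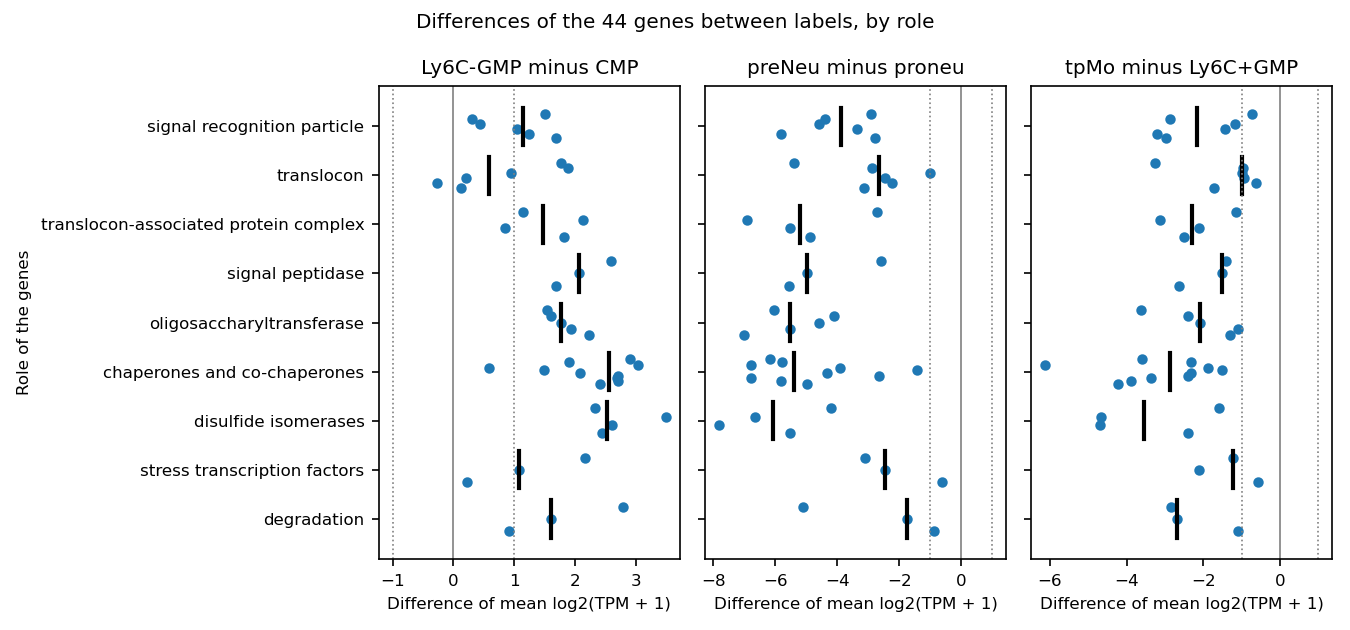
Difference of mean log2(TPM + 1) (horizontal axis) for each gene (points) by role, for Ly6C-GMP minus CMP, preNeu minus proneu and tpMo minus Ly6C+GMP; black lines are role medians and dotted lines mark 1 log2 unit. The disulfide isomerases have the lowest role median in preNeu minus proneu, -6.08, and the horizontal scales differ between panels.

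On the monocyte side the pathway was also lower in tpMo than in Ly6C+GMP cells. Of the 44 genes, 39 were lower, 0 higher and 5 within 1 log2 unit, with a median of -2.22. Over all 12057 genes tested, 32.9% were lower and 3.19% higher, with a median of -0.50. Among genes of at least 100 TPM in either label, 35 of 37 of the list and 56% of all genes were lower. On mean TPM, 40 of 44 were lower, only 15 of them by at least 2 times, and the median inverse ratio was 1.68-fold.

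Calr had the largest difference, -6.13, with a lowest, median and highest level of 0, 2.59 and 768 TPM in tpMo cells and 4.83, 683 and 1831 TPM in Ly6C+GMP cells. The difference was -6.61 within run C, with means of 97.2 TPM in tpMo and 866 TPM in Ly6C+GMP cells. Pdia6 had 0, 32.1 and 1060 TPM in tpMo cells; every Ly6C+GMP cell had over 100 TPM, with a median of 791 and a highest of 1647 TPM. Its difference was -4.70. The ranges of both genes overlapped, while most tpMo cells lay low.
Pdia4 (-4.68), Creld2 (-4.21), Manf (-3.88) and Rpn1 (-3.61), a subunit of the oligosaccharyltransferase, followed. Creld2 averaged 92.7 ± 170 TPM in tpMo and 278 ± 245 TPM in Ly6C+GMP cells. By role, summed levels were 2.89-fold lower in tpMo cells for chaperones and 2.46-fold lower for disulfide isomerases, and 1.08-fold lower for the signal recognition particle and 1.12-fold lower for the stress transcription factors. On the log2 scale 5 of 6 signal recognition particle genes (median -2.15) and 2 of 3 stress transcription factors (median -1.22) were nevertheless counted as lower, against medians of -2.88 for chaperones and -3.54 for disulfide isomerases. Xbp1 averaged 442 ± 388 TPM in tpMo and 480 ± 287 TPM in Ly6C+GMP cells and was detected in all 31 tpMo cells.

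Levels of the pathway were higher in tpMo than in preNeu cells. Of the 44, 33 were higher in tpMo cells, 0 lower and 11 within 1 log2 unit, with a median of 2.20; over all 10826 genes tested, 26.3% were higher and 4.53% lower (median 0.36). Among genes of at least 100 TPM in either label, 32 of 33 of the list and 64% of all genes were higher. Of the list, 32 reached that mean in tpMo cells but only 13 in preNeu cells, so most entered only through tpMo cells. On mean TPM, 40 of 44 were higher and 4 lower, 30 higher and 2 lower by at least 2 times, with a median ratio of 2.67. The summed level was 2.59-fold higher as deposited and 2.00-fold higher with 12 granule genes taken out of the total. It was not computed with median-ratio scaling, which divides each cell by a size factor with a median of 0.885 in tpMo and 0.359 in preNeu cells. That division raises preNeu values more than tpMo values and would narrow the gap in the sum. The size of the gap under it is not known here.
Ostc, with a difference of 5.24, had 0, 351 and 1253 TPM in tpMo cells and 0, 0 and 483 TPM in preNeu cells. Dad1 (4.64) was detected in 29 of 31 tpMo cells and 9 of 31 preNeu cells, with means of 165 ± 162 TPM in tpMo and 24.5 ± 50.5 TPM in preNeu cells. Sdf2l1 (4.12), Ssr2 (4.07), Srp19 (3.89) and Ssr3 (3.71) followed. Atf4, Sel1l and Edem1 differed by -0.31, -0.42 and -0.48. By role, the median difference was highest for the signal peptidase (3.14) and the translocon-associated complex (3.08). Calr, with means of 97.2 TPM in tpMo and 28.6 TPM in preNeu cells, was low in both labels.

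Several comparisons share cells, so their values are given side by side by promoter class. The 7 genes with the ER stress response element had a median difference of 2.61 in Ly6C-GMP minus CMP, -5.80 in preNeu minus proneu and -3.61 in tpMo minus Ly6C+GMP. The 28 genes with a promoter in the table and no such element had medians of 1.65, -3.74 and -1.84. The classes were closer in the other comparisons. Medians with and without the element were 0.55 and 0.36 in Ly6C+GMP minus Ly6C-GMP, and -0.23 and -0.13 in proneu minus Ly6C+GMP. In tpMo minus preNeu they were 2.09 and 1.96. The ranges overlapped in each case, for example -7.82 to -2.65 with the element and -6.77 to -0.63 without it in preNeu minus proneu. The 7 genes, apart from Pdia6, are counted here as chaperones or co-chaperones. That role had medians of 2.55 in Ly6C-GMP minus CMP, -5.39 in preNeu minus proneu and -2.88 in tpMo minus Ly6C+GMP. The parts of promoter class and role were not tested.

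Granule messages and ER genes were then set side by side in single cells. The primary granule sum covers Mpo, Elane, Prtn3, Ctsg, Prss57 and Cst7, and the secondary sum covers Ngp, Camp, Ltf, Lcn2, Chil3 and Mmp8. The median primary sum was 4225 TPM for CMP cells, 53010 TPM for Ly6C-GMP cells and 69127 TPM for Ly6C+GMP cells. It was 109560 TPM in proneu, 92.8 TPM in preNeu and 1330 TPM in tpMo cells. The secondary sum had medians of 239731 TPM in preNeu, 213 TPM in proneu and 1832 TPM in tpMo cells. By mean, most of it in tpMo cells was Chil3, at 3482 TPM, against 91.4 TPM for Ngp, 30.7 TPM for Camp and 11.1 TPM for Ltf. Mmp8 went the other way from the sum, with 216 TPM in tpMo and 13.5 TPM in preNeu cells. Per 1000 TPM of all 12 granule genes, the median ER gene sum was 342 TPM for Ly6C-GMP, 255 TPM for Ly6C+GMP, 170 TPM for proneu and 13.7 TPM for preNeu cells. It was 2063 TPM in CMP and 1540 TPM in tpMo cells, where granule message was low.

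Within labels the ER sum and the primary granule sum were related in CMP, Ly6C-GMP and tpMo cells. Spearman's rho over cells, given as a description, was 0.60 in 47 CMP cells, 0.72 in 45 Ly6C-GMP cells and 0.60 in 31 tpMo cells. It was 0.27 in Ly6C+GMP cells, -0.25 in 22 proneu cells and 0.06 in 31 preNeu cells. The cells of a label share sort and title runs: within runs rho was 0.70 and 0.51 in CMP (B and H), 0.75 and 0.66 in Ly6C-GMP (B and H), and 0.31 and -0.13 in Ly6C+GMP cells (A and C).
The number of genes detected was related to the ER sum in CMP cells (0.57) and tpMo cells (0.40), and to the primary sum there (0.74 and 0.70), and its part in the relation was not tested. In Ly6C-GMP cells genes detected had a rho of 0.15 with the ER sum. In proneu cells the ER sum and the secondary granule sum had a rho of -0.63, and of -0.59 in the 21 cells of run C.

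The Ly6C-GMP cells with the lowest ER sums, 3076 and 7237 TPM, had 2694 and 40544 TPM of Ngp and the lowest primary sums of their label, 72.7 and 4445 TPM. The third Ly6C-GMP cell with at least 1000 TPM of Ngp had an ER sum of 16865 TPM. The lowest Ly6C+GMP cell, at 8290 TPM, had 46094 TPM of Ngp and the lowest primary sum of its label, 10859 TPM. The highest preNeu cell, at 7650 TPM, had the highest primary sum (20983 TPM) and the lowest secondary sum (148776 TPM) of its label. The highest tpMo cells, at 17986 and 17178 TPM, had the highest primary sums (58387 and 31957 TPM). Other end cells did not follow this pairing. The second highest preNeu cell, at 6219 TPM, had a primary sum of only 35.1 TPM. Its secondary sum, 301149 TPM, was the second highest of its label. The second lowest Ly6C+GMP cell, at 11509 TPM, had a primary sum of 118832 TPM, among the highest of its label. The highest Ly6C-GMP cell, at 25119 TPM, had a primary sum near the middle of its label, 57185 TPM.

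**Figure D4:**
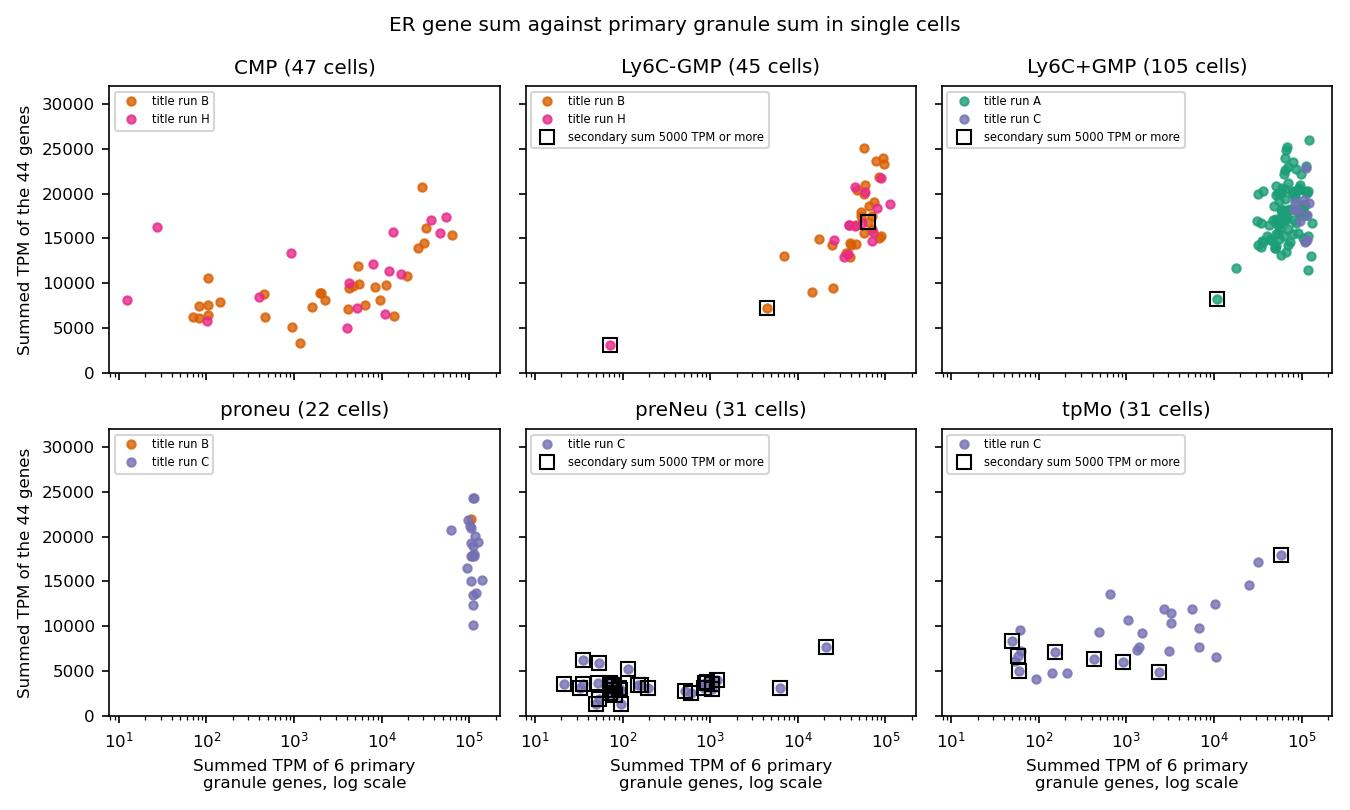
Summed TPM of the 44 genes (vertical axis) against the summed TPM of 6 primary granule genes (horizontal axis, log scale) in each cell, 1 panel a label; colours are title runs and open squares mark a secondary granule sum of at least 5000 TPM. The Ly6C-GMP cells with 3076 and 7237 TPM of ER genes lie at the lower left with squares, and the 31 preNeu cells all carry squares. By mean, most of the secondary sum in tpMo cells is Chil3.

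Single genes followed the sum loosely. Over pairs of genes with a mean of at least 100 TPM, the median rho between genes was 0.15 in CMP and Ly6C-GMP cells, 0.07 in Ly6C+GMP, 0.08 in proneu, 0.09 in tpMo and 0.00 in preNeu cells. Hspa5 tracked the sum of the other 43 genes with a rho between 0.62 and 0.69 in CMP, both GMP labels and tpMo, of 0.41 in proneu cells and of 0.24 in preNeu cells. Xbp1 had a rho of 0.35 in CMP and 0.42 in tpMo cells, and of -0.15 to 0.22 in the other labels.

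Further genes of the pathway, from 5 lists, were counted in the same way, and the share of all genes tested that was called in the same direction stands beside each comparison. In Ly6C-GMP minus CMP, 13 of 22 translocation genes, 13 of 23 folding and glycan genes, 6 of 15 degradation genes and 21 of 31 genes of COPII and COPI transport were higher and 0 lower, as were 3 of 11 stress sensors and their targets (all genes, 15.6%). In preNeu minus proneu, 19 of 22 translocation, 19 of 22 folding, 12 of 16 degradation and 26 of 30 transport genes were lower, and 2 of 11 stress sensors and targets (all genes, 39.8%). In tpMo minus Ly6C+GMP, 18 of 22 translocation, 19 of 23 folding, 11 of 16 degradation and 24 of 31 transport genes were lower, and 5 of 14 of the stress list (all genes, 32.9%). In proneu minus Ly6C+GMP, 5 of 22 translocation, 7 of 23 folding, 3 of 16 degradation, 6 of 31 transport and 2 of 11 stress genes were lower (all genes, 15.9%). In Ly6C+GMP minus Ly6C-GMP, 4 of 22 translocation, 3 of 23 folding, 4 of 16 degradation, 3 of 31 transport and 0 of 11 stress genes were higher (all genes, 9.87%). Several counts in proneu minus Ly6C+GMP and in Ly6C+GMP minus Ly6C-GMP lie near these shares. In tpMo minus preNeu, 14 of 22 translocation, 11 of 22 folding, 7 of 15 degradation, 20 of 31 transport and 2 of 13 stress genes were higher (all genes, 26.3%). At most 2 genes of a list went the opposite way in these comparisons.

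A few of these genes did not follow the 44. Ero1l, the oxidase that recharges disulfide isomerases, averaged 185 ± 185 TPM in preNeu cells, above the 84.9 ± 74.6 TPM of proneu cells, and 35.3 ± 71.9 TPM in tpMo cells; it was detected in 25 of 31 preNeu and 11 of 31 tpMo cells. Chac1, a target of ATF4 and CHOP, averaged 51.1 ± 156 TPM in preNeu cells and was detected in 6 of 31 of them, against 1 of 22 proneu cells. The preNeu median of Chac1 was 0 and the highest preNeu cell had 770 TPM. Its difference of 0.99 in preNeu minus proneu fell short of 1 log2 unit. Ern1, which encodes IRE1, did go the way of the 44, with a difference of -1.68 in preNeu minus proneu. It reached at most 0.29 TPM in preNeu cells. In proneu cells Ern1 was detected in 8 of 22 and reached 147 TPM.

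Txndc5, a disulfide isomerase outside the 44, was at or near 0 in preNeu and proneu cells. It reached at most 0.74 TPM in preNeu cells, and 13.8 TPM in proneu cells, 2 of 22 of which showed it. Its median was 75.8 TPM in tpMo and 68.9 TPM in Ly6C+GMP cells. Within run C the means were 0.849 TPM in 21 proneu cells and 23.7 TPM in 10 Ly6C+GMP cells, a difference of -1.02, against -3.73 over all cells. Erp29, another ER folding factor, averaged 529 ± 408 TPM in tpMo and 74.9 ± 188 TPM in preNeu cells, a difference of 5.67.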

How the data were processed

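Single cells (281) had been sorted with the gates that the labels give. Per the labels' protocols, RNA was extracted in picopure buffer, amplified by SMART-seq2 with a changed lysis buffer, and sequenced after Nextera XT preparation. The authors deposited 1 table of TPM for 43280 symbols. RSEM 1.2.19 and GRCm38 are named in the submitters' processing notes. Not given in the sources used here are the aligner, the annotation and any filter. Column totals ran from 998703 to 1000000 TPM, so read depth is unknown and the number of detected genes stands in for it. Values are relative within a cell. RSEM shares reads of near-identical copies by estimate, which makes Srp54a (with Srp54b and Srp54c) and genes with pseudogene copies such as Sec61g less certain, and the kit does not mark strand.

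The effect was the difference between labels in mean log2(TPM + 1), a scale that understates low genes; a gene was tested from a mean of 1 TPM in either label and counted as higher or lower from 1 log2 unit. Each label was 1 sample, so no test was made. Shares have exact Clopper-Pearson 95% intervals. The gene set and all lists were chosen with earlier results of these data known. The named genes were the 6 with the largest differences in each direction among the 44 past 1 log2 unit with a mean of at least 10 TPM, and 3 for each further list; other genes were named by role or after their values were seen. No cell was left out, doublets were not called, and no pair of columns was identical. Positions are those of GENCODE M21 on GRCm38, counted from 1. Python 3.11.15, numpy 2.4.6, pandas 2.3.3, scipy 1.17.1 and matplotlib 3.10.9 were used, and the code was tested on simulated data. Alternatives were the pseudocount, the ratio of mean TPM, other scalings, a minimum of 2500 genes per cell, single title runs and, chosen after seeing the data, leaving out cells with at least 1000 TPM of Ngp, rescaling without 12 granule genes and a limit of 100 TPM.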

Additional observations from a re-analysis of the deposited data

How the results depend on the processing

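No comparison called in the report turned its direction under the alternatives run. Of 320 values of named genes, 308 moved by less than the pooled SD over cells of log2(TPM + 1). That limit is wide: for Srp68 the SD was 2.55 in Ly6C+GMP and 3.27 in Ly6C-GMP cells. Leaving out the filter on low values cannot change the value of a single gene. Of the medians, counts and correlations, 143 values stayed within the limits set for them and 25 moved. All 44 genes passed the filter in each comparison, so leaving it out cannot change these medians or counts either. Its values are fixed in advance and stand among the 143. The median difference of the 44 genes stayed positive in Ly6C-GMP minus CMP (0.65 to 2.21), Ly6C+GMP minus Ly6C-GMP (0.18 to 0.59) and tpMo minus preNeu (1.33 to 2.74), and negative in preNeu minus proneu and tpMo minus Ly6C+GMP. In proneu minus Ly6C+GMP it ran from -0.33 to 0.057. The preNeu minus proneu median was -3.13 with a pseudocount of 10 TPM, -5.86 with 0.1 TPM, -2.36 as a ratio of mean TPM, -3.56 with median-ratio scaling and -3.77 in cells with at least 2500 genes. As a ratio of mean TPM, Ly6C-GMP minus CMP had 9 genes higher, Ly6C+GMP minus Ly6C-GMP had 0, and proneu minus Ly6C+GMP had 2 higher and 0 lower. On that scale the tpMo minus Ly6C+GMP median was -0.74 with 15 genes lower, and 2 genes were lower in tpMo than in preNeu cells, as with median-ratio scaling (2). With a pseudocount of 10 TPM, Ly6C+GMP minus Ly6C-GMP had 2 genes higher, and proneu minus Ly6C+GMP had 0 higher and 0 lower. With 0.1 TPM these counts were 10, 2 and 5. In proneu minus Ly6C+GMP, 2 genes were higher with median-ratio scaling and 2 without mitochondrial and top genes, and 0 higher and 8 lower in run C. In run H, 1 gene was lower in Ly6C-GMP than in CMP cells. The Ly6C+GMP rho with the primary granule sum was 0.40 after rescaling without granule genes. The cause of these shifts was not tested. Leaving out cells by Ngp, rescaling without granule genes and the limit of 100 TPM were chosen after seeing the data. Median-ratio scaling moved the median of all genes in preNeu minus proneu to -0.41, against -0.68. No paired analysis was possible because replicate numbers were given in accession order and name no animal or batch.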
